A study of Homo sapiens with 2 samples.

Results

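The G1 cyclins and their kinases were followed here as 10 genes: the D-type cyclins CCND1, CCND2 and CCND3, their kinases CDK4 and CDK6, the E-type cyclins CCNE1 and CCNE2, their kinase CDK2, the inhibitor CDKN1B and the retinoblastoma gene RB1. All 29 probe sets that carry 1 of these symbols in the platform's gene table were taken, of 44988 probe sets with a single symbol and 18132 genes in all. The genes were chosen by name and role with earlier log2 differences of these same arrays known, so their differences are descriptions and support no claim of their own. The arrays compared HCT116 cells, a human colorectal carcinoma line, with the hairpin shSUN2-1 against SUN2 (genotype SUN2 knockdown, 1 array) and HCT116 cells with the scrambled hairpin Scr (genotype control, 1 array). Both cultures grew in DMEM with 10% FBS at 5% CO2, and no time after hairpin delivery is stated in the labels. The model is limited to 1 line and 1 hairpin.

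In early G1 the D-type cyclins bind CDK4 or CDK6, and these complexes begin to phosphorylate the retinoblastoma protein. Phosphorylated RB releases E2F factors, which raise transcription of the E-type cyclins and of genes for DNA replication, and cyclin E with CDK2 completes RB phosphorylation. The inhibitor p27, the product of CDKN1B, binds cyclin E with CDK2 and holds it inactive, while it can also help to assemble cyclin D complexes. In colorectal epithelium cyclin D1 is known as a product of Wnt and growth factor signalling.

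Values are deposited probe set intensities on a linear scale. Each difference is the log2(intensity + 16) of the knockdown array minus that of the control array, and a fold is taken from it. A gene was represented by its brightest probe set, and it passed the filter on low values when the mean of that probe set over both arrays was at least 108, the median of all probe sets. This kept 12218 genes, 9 of the 10 G1 genes among them. A single array per group allows no test, no p-value and no estimate of the variation between cultures. The spread that can be given is that of probe sets around the mean of their gene (log2 SD 0.09, from the 5786 genes with 2 or more probe sets past the filter), called the probe SD below. It covers probe error on these arrays alone.

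SUN2, the target of the hairpin, had 407 in the knockdown array and 498 in the control array on its brightest probe set, 81.8% of control (log2 difference -0.28). Its 6 probe sets all differed downward, from -0.39 to -0.05. The keratins KRT8 and KRT18 and the adhesion molecule EPCAM were bright in both arrays, with 1325, 2339 and 1480 in the knockdown array against 1041, 1872 and 1342 in the control array. Of the 10 colorectal epithelial markers 8 passed the filter, 6 of them higher and 2 lower in the knockdown array, with VIL1 and CEACAM5 below it. LGR5 (-0.10) and CDX1 (-0.06) were the lower ones, CDH1 and CDX2 each differed by 0.04, and the summed intensity of all 10 was 9238 in the knockdown array and 7933 in the control array. Of the fibroblast, immune and endothelial markers 2 of 7, 3 of 7 and 4 of 6 passed, and each of these 9 differed downward. The brightest of each list were PDGFRB, CD79A and PECAM1, with 230, 324 and 213 in the knockdown array against 254, 367 and 224 in the control array. PTPRC, the defining leukocyte marker, was below the filter, with 49.99 in the knockdown array and 53.7 in the control array. No marker is listed at 0, since background remains in the values. Of 23 background control probe sets, 20 were lower in the knockdown array (median difference -0.04), whereas all 18 hybridization spike-in probe sets were higher (median 0.09). The part of these shifts in the results was not tested. The background controls ran from 31.4 to 1128 in the knockdown array and from 31.2 to 1425 in the control array. Each control stands for a number of G or C bases, from 3 to 25, and the highest values are those at 25. The control with 16 such bases had 94.2 in the knockdown array and 98.6 in the control array. All G1 probe sets, bright ones included, lie within the full range. Their own G or C content was not matched to the controls, so a place among the controls is no measure of detection.

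Across the G1 genes, the E-type cyclin CCNE2 and the kinase CDK6 stood highest above control. CCNE2 was 1.74-fold and CDK6 1.64-fold higher in the knockdown array, followed by CCNE1 at 1.27-fold. The inhibitor CDKN1B was 1.19-fold higher and CDK4 1.15-fold. The D-type cyclins CCND1 and CCND3 and RB1 differed by 1.05-fold to 1.10-fold, and CDK2 was the 1 gene past the filter with a lower value. CCND2 lay below the filter. Of the 9 genes past it 8 were higher, against 49.8% of all genes past the filter, and their median difference was 0.20, against -0.0008 for all genes. That median was 0.13 after quantile normalization, against -0.03 for all genes, and 0.10 without the _x_at and _s_at classes, whose probes can match more than 1 transcript or gene. The count of higher genes was 7 of 9 after quantile normalization, after a loess correction on intensity and when all probe sets of a gene were averaged. At least 1.2-fold higher were 3 of the 9 genes, where 5.97% of all genes reached that size. None was 1.2-fold lower, where 0.884% of all genes were. At 1.5-fold there were 2 of 9, against 0.336% of all genes, and at 2-fold 0 of 9, against 0.0737%. Since the genes were listed with these differences known, nothing is read from the comparison with the background. At 1.2-fold, 87.1% of the calls over all genes were higher in the knockdown array, and this share was 61.0% after quantile normalization and 71.5% after loess, with CCNE2, CDK6 and CCNE1 past 1.2-fold under both.

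**Figure D1:**
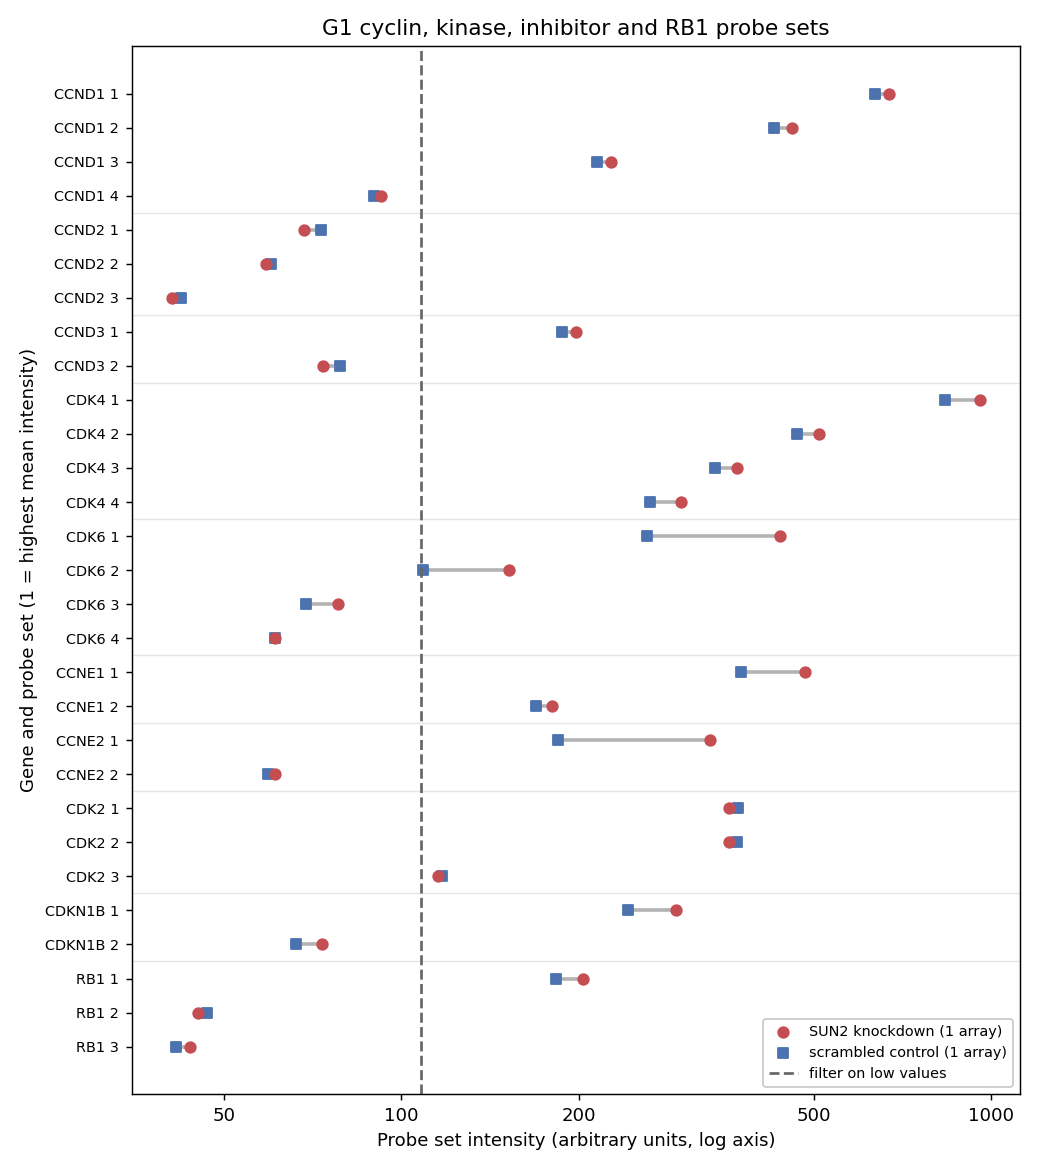
Intensity of each of the 29 probe sets (rows, numbered by mean intensity within a gene) on the SUN2 knockdown array (circles) and the scrambled control array (squares), on a log axis in arbitrary units, with the filter at 108 as a dashed line. The widest gaps are those of CCNE2 probe set 1 (334 in the knockdown array and 184 in the control array) and CDK6 probe set 1 (438 in the knockdown array and 261 in the control array), while the 3 CCND2 probe sets lie left of the filter on both arrays.

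Among the D-type cyclins, CCND1 was measured best. Its 4 probe sets had 672, 460, 226 and 92.5 in the knockdown array, against 634, 429, 215 and 90.04 in the control array. Each was slightly higher in the knockdown array, by 0.03 to 0.10 on the log2 scale, about the size of the probe SD. All 3 of those past the filter were higher, as in 34.5% of genes with at least 2 such probe sets. Probe sets as bright as its first (bin of 406 to 698) had a median difference of 0.09 themselves. CCND1 differed by -0.02 after quantile normalization and by -0.01 after loess, so its sign is not settled by these arrays.

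CCND2, a D-type cyclin prominent in lymphoid and germ cells, had 68.4, 59.01 and 40.9 in the knockdown array and 73.0, 60.03 and 42.4 in the control array. All 3 probe sets lay below the filter and below 11 or more of the 23 background controls, and their differences ran from -0.08 to -0.02. CCND3, the remaining D-type cyclin, had 198 in the knockdown array and 187 in the control array on the 1 probe set past the filter, a difference of 0.07. Its other probe set went the opposite way, with 73.6 in the knockdown array against 78.6 in the control array (-0.08). The mean of both was -0.003, and no direction can be given for CCND3.

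CDK6, a catalytic partner of the D-type cyclins, was higher in the knockdown array on its 2 probe sets past the filter. Probe set 1 had 438 in the knockdown array and 261 in the control array, a log2 difference of 0.72. It ranked 23 of the 12218 genes by size of increase, and 176 when all probe sets of a gene were averaged. Probe set 2 had 152 in the knockdown array and 109 in the control array (0.43). Its control value sits at the filter, above 14 of the 23 background controls. Both probe sets past the filter exceeded 1.2-fold, as in 2.18% of the 5786 genes with at least 2. The other CDK6 probe sets were dim: probe set 3 had 78.2 in the knockdown array against 68.9 in the control array (0.15), and probe set 4 had 60.997 in the knockdown array against 60.968 in the control array (0.0005). The difference was therefore smaller on each dimmer probe set, and the mean over all 4 was 0.32. Within its own array, probe set 1 stood at percentile 90.7 of all probe sets in the knockdown array and 82.0 in the control array.

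CDK4, the other D-type partner, gave a smaller difference that its probe sets shared. The 4 probe sets had 958, 511, 371 and 297 in the knockdown array, against 834, 470, 340 and 264 in the control array. All 4 were higher, by 0.12 to 0.20, as in 34.5% of genes with at least 2 probe sets past the filter. The spread of these 4 differences is narrower than that of CDK6. Probe sets as bright as the first had a median difference of 0.11, and CDK4 stood at 0.07 after quantile normalization and 0.10 after loess. The first 2 of these probe sets belong to the _s_at and _x_at classes.

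CCNE2, the second E-type cyclin and an activator of CDK2, had the largest difference of the 10 genes. Its probe set 1 had 334 in the knockdown array and 184 in the control array, 149 intensity units apart, a log2 difference of 0.80. The control value alone passes the filter, and it lies above 16 of the 23 background controls. It ranked 18 of 12218 genes by size of increase, and 58 when all probe sets of a gene were averaged. Its percentile among all probe sets was 86.5 in the knockdown array and 72.04 in the control array. Probe set 2 had 61.1 in the knockdown array against 59.4 in the control array (0.03), below the filter and above 11 of the 23 background controls. The difference of CCNE2 thus rests on 1 probe set, and the mean of both was 0.42 with an SD between them of 0.55.

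CCNE1, the other E-type cyclin, had 484 in the knockdown array and 376 in the control array on its bright probe set, of the _s_at class (0.35). The other probe set, of the _a_at class for transcripts of a single gene, had 180.3 in the knockdown array against 169 in the control array (0.08). Both were higher, but by sizes that differ more than the probe SD of 0.09, and CCNE1 reached 1.2-fold on the first alone. Without the _x_at and _s_at classes it stood at 0.08.

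CDK2, the kinase that both E-type cyclins activate, had 359.9, 359.6 and 115 in the knockdown array, against 372, 370.3 and 117 in the control array. All 3 probe sets were lower, with log2 differences from -0.04 to -0.02, as in 29.4% of genes with at least 2 probe sets past the filter. That is under the probe SD.

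CDKN1B, which encodes the inhibitor p27, had 292 in the knockdown array and 243 in the control array on its bright probe set, of the _s_at class. The difference of 0.25 lay just under 1.2-fold (0.26 on this scale), and passed it with median centring (0.27) and with a pseudocount of 1. Its second probe set, below the filter, had 73.5 in the knockdown array against 66.2 in the control array (0.12). RB1, the substrate that the cyclin D and cyclin E kinases phosphorylate, had 203 in the knockdown array and 183 in the control array on the 1 probe set past the filter (0.14). Its remaining probe sets had 45.2 and 43.8 in the knockdown array against 46.7 and 41.5 in the control array. Their differences were -0.04 and 0.06. Both lay below the filter, above 9 of the 23 background controls on each array.

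Over single probe sets, 18 of the 29 passed the filter and 15 of those were higher in the knockdown array. Of these 18, 4 were at least 1.2-fold higher, against 6.28% of all probe sets past the filter. The 11 probe sets below the filter split into 6 higher and 5 lower, with a median difference of 0.0005. Set beside all probe sets of similar brightness in 20 bins, 4 of the 29 lay above the 97.5th percentile of their bin, where 2.52% of all probe sets lie by construction. They were CCNE2 probe set 1 and CDK6 probe sets 1, 2 and 3. None lay below the 2.5th percentile. In these whole-culture RNA samples a larger share of cells in a cell cycle phase and more RNA per cell cannot be told apart.

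**Figure D2:**
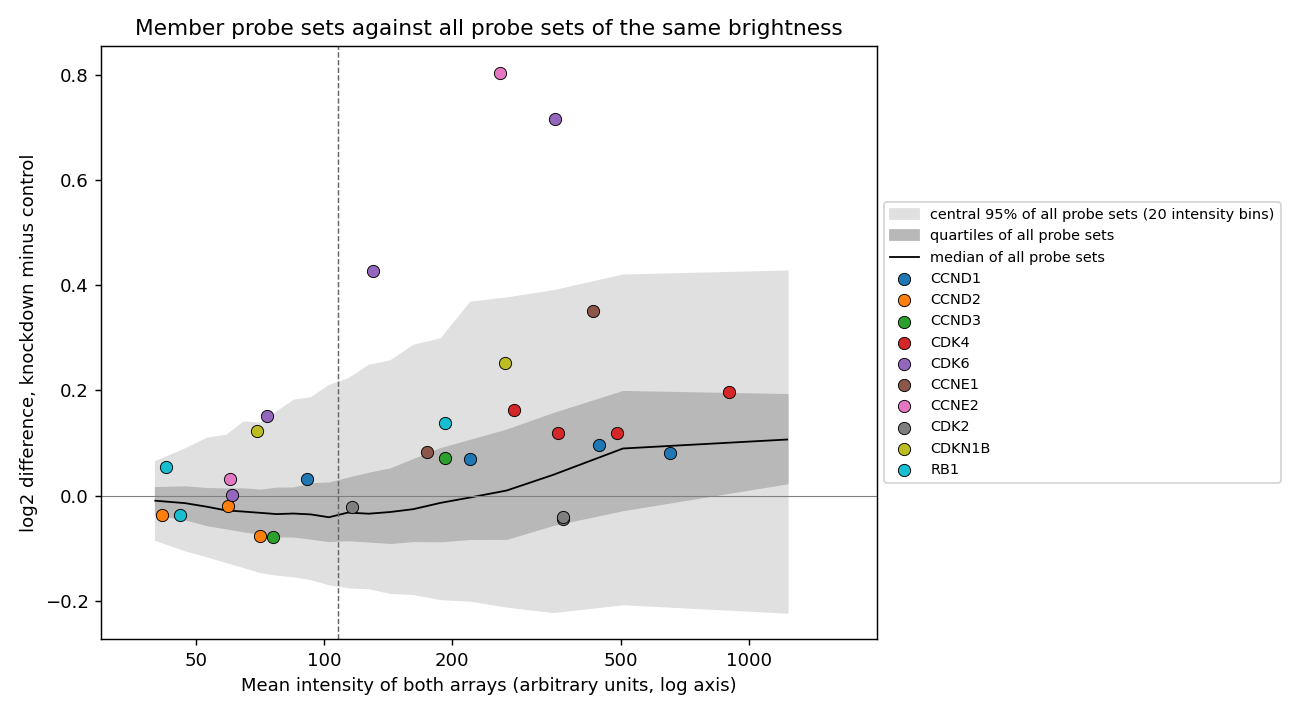
Log2 difference (knockdown minus control) of each of the 29 probe sets against its mean intensity over both arrays (log axis, arbitrary units), over the median, quartiles and central 95% of all probe sets in 20 intensity bins. CCNE2 (0.80) and CDK6 (0.72, 0.43 and 0.15) leave the grey band, and the points of the other 8 genes lie inside it.

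Promoter windows are shown for CCNE1 and CDK6, the genes with a window used here that were at least 1.2-fold higher on their brightest probe set. CDK4, CDKN1B, RB1 and CCND3 also have windows and were higher by less. A link between the letters and the differences was not tested. RefSeq windows of GRCh38.p14, from 250 bases before to 50 after an annotated start, were used for 6 of the 10 genes, 9 windows in all. Searched on both strands for the E2F core TTTNNCGC, 0 of the 9 windows held a match, against 6.89% of 35116 windows of the same length. The GC box GGGCGG, the letters that SP1 family factors are known to bind, was searched the same way with overlapping matches counted, and 45.0% of those windows hold it. It occurs 7 times in the CCNE1 window and 3 times in the upstream of the 2 CDK6 windows, and 0 times in the other. CDK4 also has 3, CDKN1B has 1, and the 3 CCND3 windows have 5, 4 and 0. RB1 has 0 in its only window, chr13:48476200-48476499, 38.3% G or C. Whether a window lies at the main start of its gene was not checked, so these counts do not describe every promoter of a gene. No window was used for CCND1, CCND2, CCNE2 or CDK2, which does not mean that these genes have none. A match is a description of letters and no sign of binding. The E2F core is 1 strict pattern that few windows hold, so 0 of 9 is no sign that these genes lack E2F sites. The windows are given 5′ to 3′ on the strand of the gene, with the GC box in capitals on either strand. The CCNE1 window is chr19:29811741-29812040 on the plus strand, 81% G or C, and the CDK6 window is chr7:92836524-92836823 on the minus strand, 78% G or C.
CCNE1: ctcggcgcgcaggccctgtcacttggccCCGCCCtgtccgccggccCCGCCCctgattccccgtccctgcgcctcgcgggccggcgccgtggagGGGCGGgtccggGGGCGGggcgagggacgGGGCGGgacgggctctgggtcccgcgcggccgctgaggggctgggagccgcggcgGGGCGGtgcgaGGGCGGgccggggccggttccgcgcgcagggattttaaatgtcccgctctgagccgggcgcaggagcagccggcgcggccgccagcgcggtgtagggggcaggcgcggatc
CDK6: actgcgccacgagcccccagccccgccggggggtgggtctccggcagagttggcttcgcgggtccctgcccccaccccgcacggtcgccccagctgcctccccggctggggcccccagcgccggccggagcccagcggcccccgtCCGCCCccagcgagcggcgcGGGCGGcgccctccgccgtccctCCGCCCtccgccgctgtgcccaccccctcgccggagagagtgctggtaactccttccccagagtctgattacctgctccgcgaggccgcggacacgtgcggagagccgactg

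The neighbours of these genes in the G1 pathway were read from 6 further lists, written with earlier results known. Their counts stand beside 49.8% of all genes higher by any amount, 5.97% at least 1.2-fold higher and 0.884% at least 1.2-fold lower, with a median of -0.0008. E2F target genes of S phase entry did not share one direction: 11 of the 20 past the filter were higher and 9 lower, with a median of 0.01 and a range of -0.19 to 0.26. The median was -0.07 after quantile normalization and -0.05 after loess. None reached 1.2-fold. CDC25A, a phosphatase that activates CDK2, had 235 in the knockdown array and 194 in the control array (0.26), and CDC6, which loads the replicative helicase, had 849 in the knockdown array and 728 in the control array (0.22). MCM3, a subunit of that helicase, had 567 in the knockdown array and 649 in the control array (-0.19). The 3 probe sets of CDC25A ran from 0.01 to 0.30. The probe sets of CDC6 and of MCM3 disagreed in sign, from -0.04 to 0.22 and from -0.19 to 0.08.

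The E2F and DP factors, listed with the RB relative RBL2, were higher in 8 of 11 cases (median 0.10, and 0.06 after quantile normalization). Of these 11, 1 was at least 1.2-fold higher. TFDP1, the dimer partner of E2F proteins, had 1072 in the knockdown array and 828 in the control array (0.37), with -0.05 on its other probe set past the filter. The repressive E2F genes E2F6 and E2F7 differed by 0.23 and 0.21. Both E2F6 probe sets past the filter were higher, as in 34.5% of genes with at least 2, while E2F7 had -0.09 on its second.

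Of the CDK inhibitors other than p27, 4 of 5 past the filter were higher (median 0.15). CDKN1A, which encodes p21, had 1263 in the knockdown array and 981 in the control array (0.36). Both of its probe sets were at least 1.2-fold higher, as in 2.18% of genes with at least 2 probe sets past the filter. CDKN1C, which encodes the related inhibitor p57, was the 1 lower gene, with 239 in the knockdown array and 292 in the control array (-0.27). All 3 of its probe sets were lower, from -0.32 to -0.20, as in 29.4% of genes with at least 2 probe sets past the filter. CDKN3, a phosphatase that acts on CDKs, differed by 0.22.

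Genes for CDK activation and for the turnover of cyclins and p27 were higher in 12 of 15 cases, with a median of 0.16, and 3 of the 15 were at least 1.2-fold higher. That median was 0.05 after quantile normalization, 0.07 after loess and 0.08 with averaged probe sets. FBXW7, the ubiquitin ligase subunit that marks phosphorylated cyclin E for degradation, had 189 in the knockdown array and 132 in the control array (0.47). Its 3 probe sets were all higher, by 0.33 to 0.50. Each exceeded 1.2-fold, as in 2.18% of genes with at least 2 probe sets past the filter. CCNH and CDK7, subunits of the kinase that activates CDKs, had 529 and 511 in the knockdown array against 411 and 423 in the control array (0.35 and 0.26), on 1 probe set each. SKP2, the ligase subunit that targets p27, lay below the filter, with 112 in the knockdown array and 103 in the control array on its brightest probe set.

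Among transcription factors upstream of CCND1, 6 of 11 were higher and the median was 0.05, with -0.02 after quantile normalization and -0.01 after loess. MYC had 898 in the knockdown array and 642 in the control array on its 1 probe set (0.48). STAT3 differed by 0.22 and FOS by -0.19, and the STAT3 probe sets ran from -0.04 to 0.22. Among other cell cycle cyclins and kinases 6 of 8 were higher, with a median of 0.18. It was 0.08 without the _x_at and _s_at classes, 0.09 with averaged probe sets and 0.10 after quantile normalization. CCNG1, a p53 target, differed by 0.28, CCNB1, the mitotic cyclin, by 0.26 and CCNC, a subunit of the Mediator kinase, by 0.24. For CCNG1 1 of 5 probe sets passed the filter, and the mean over all 5 was 0.11. CCNB1 had 1 probe set, and the 3 of CCNC ran from 0.04 to 0.24. No gene of the 6 lists reached 1.5-fold.

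**Figure D3:**
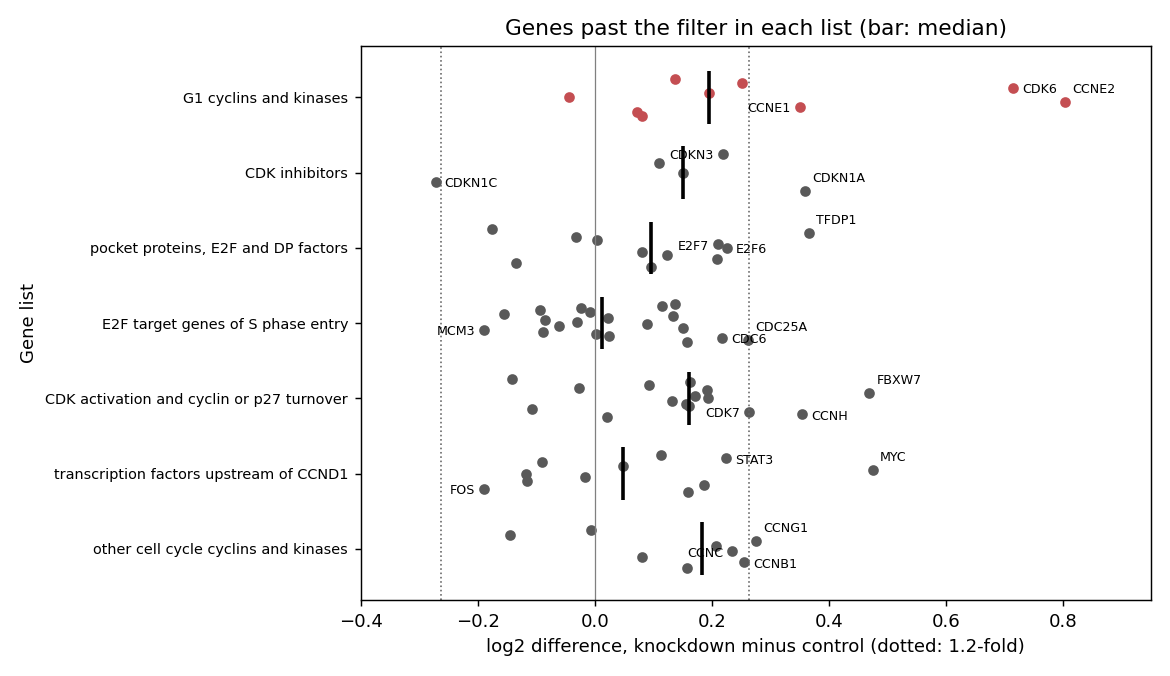
Log2 difference (knockdown minus control) of each gene past the filter, by list, with the median as a bar, 1.2-fold as dotted lines and the 3 largest differences of each list named. CCNE2 (0.80) and CDK6 (0.72) lie furthest right, and the E2F target genes lie around 0 (median 0.01).

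The order of the differences among the G1 genes held its upper end under the processing settings tried. CCNE2 ranged from 0.42 to 0.85 and CDK6 from 0.32 to 0.75 over 10 alternatives, with the lowest value of each from the mean of all probe sets. CCNE1 ranged from 0.08 to 0.37 and CDK4 from 0.07 to 0.21. CDKN1B lay between 0.19 and 0.27 over 9 alternatives, since without the _x_at and _s_at classes it no longer passed the filter. RB1 lay between 0.05 and 0.15 over 9, as it fell below a stricter filter at the 75th percentile. CDK2 lay between -0.10 and -0.03 over all 10. From the largest difference down, the order was CCNE2, CDK6, CCNE1, CDKN1B, CDK4, RB1, CCND1, CCND3 and CDK2. Neighbours in that order lay within the probe SD of 0.09 of each other, except CDK6 (0.72) and CCNE1 (0.35), CCNE1 and CDKN1B (0.25), and CCND3 (0.07) and CDK2 (-0.04).

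**Figure D4:**
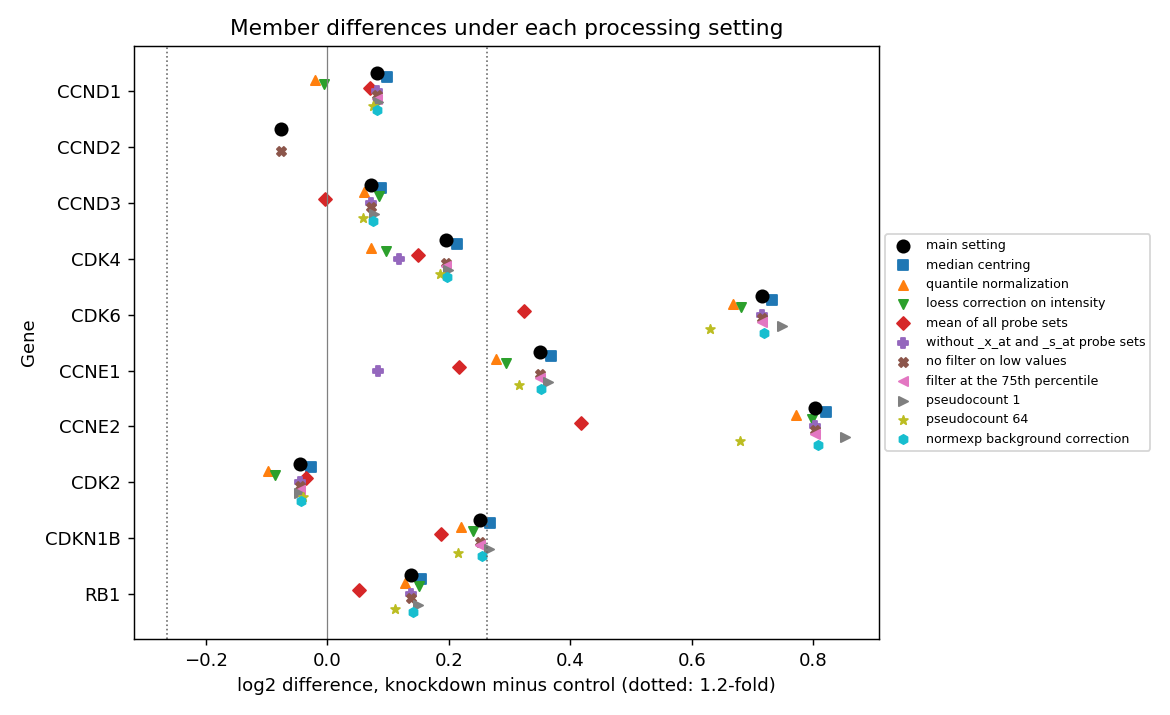
Log2 difference (knockdown minus control) of each of the 10 genes under the main setting (large black circles) and 10 alternatives (other symbols), with 1.2-fold as dotted lines. CCNE2 and CDK6 stay right of the upper line under all settings drawn, and CCND1 crosses 0 under quantile normalization and loess. CCND2, below the filter, is drawn for the main setting and with no filter. CDKN1B is not drawn without the _x_at and _s_at classes, nor RB1 and CCND3 for the filter at the 75th percentile.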

How the data were processed

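Total RNA (100 ng per culture) was turned into biotinylated cRNA for Affymetrix arrays, per the labels' protocols. The deposited values are probe set intensities on a linear scale, 1 column per array. MAS5 and RMA are named in the submitters' processing notes without a role or order, and how the arrays were scaled to each other is not stated there. Medians were 107.1 in the knockdown array and 108.8 in the control array. The number of arrays limits the precision.

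Of 49395 probe sets, 102 controls were set aside, and 44988 of the rest had 1 gene symbol, 1832 several and 2473 none. Gene names came from the platform's gene table, updated through Entrez IDs. Intensities were put on the log2(intensity + 16) scale with Python 3.11.15 and pandas 2.3.3. Loess (span 0.3), quantile normalization and normexp (offset 50) used limma 3.58.1, with no model fitted, as each group holds 1 array. Genes named in the text are the 10 G1 genes, SUN2, markers, and in each further list the 3 with the largest difference and any past 1.5-fold. SKP2 was added after its values were seen, for its known role. The gene step was tested on simulated data. The members and the lists were chosen with earlier results of these data known.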

Additional observations from a re-analysis of the deposited data

How the results depend on the processing

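The 10 alternatives reversed no G1 gene past 1.2-fold. Of 88 gene values under them, 80 moved by less than the probe SD of 0.09 and 8 by more. The median of the G1 genes (0.20) was 0.10 without the _x_at and _s_at classes, over the 8 genes left, 0.13 after quantile normalization, 0.15 after loess and with averaged probe sets, and 0.25 over the 7 genes past the stricter filter. The count of G1 genes at least 1.2-fold higher stayed between 2 and 4. Counts over all genes depended more on the setting. At least 1.2-fold higher were 730 genes, against 379 after quantile normalization, 480 after loess and 374 when probe sets were averaged. At least 1.2-fold lower were 108 genes, against 242, 191 and 47 under those settings, 69 with the _x_at and _s_at classes left out and 59 at a pseudocount of 64. The cause was not tested. Of 60 medians of the further lists, 2 moved by more than the probe SD: CDK activation and turnover after quantile normalization (0.05), and other cell cycle cyclins and kinases without the _x_at and _s_at classes (0.08). Medians of the E2F targets and of the factors upstream of CCND1 lie close to 0 and turned negative after quantile normalization and loess, the second also with averaged probe sets (-0.005). No paired analysis was possible because the groups share a single replicate number, and leaving out an array would leave no comparison. Background of the size of dim probe sets limits what CCND2 and the dim probe sets of CCNE2, CDK6 and RB1 can show.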
